A study of Mus musculus with 6 samples.

Results

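The genes of the ISG15 conjugation pathway were Isg15, Uba7, Ube2l6, Herc6 and Usp18, 5 of the 24411 genes in the count files. They were chosen by symbol for their role, as the modifier, its conjugating enzymes and its protease, and all 5 were among the 10133 genes with enough counts to be tested. They were read in 6 RNA-seq libraries of PM, primary microglia shaken from mixed glial cultures of brains pooled from 12 ICR mice at postnatal day 3. The libraries comprised 3 of PM given GSK-J4 (10 µM) and 3 of PM given LPS (10 ng/ml) and GSK-J4 (10 µM), both at 4-h. GSK-J4 is an inhibitor of the H3K27 demethylase JMJD3, and LPS is the bacterial ligand of the receptor TLR4. GSK-J4 was present in every library, so each comparison is of cells with LPS against cells without it, all of which received GSK-J4. The groups also differed in ribosomal share and in cell type markers, as given below, and these differences were not separated from LPS. Untreated PM, LPS-only PM and the BV-2 cell line were not analysed here.

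ISG15 is a small ubiquitin-like protein that is made in large amounts after type I interferon or microbial products reach a cell. It is attached to other proteins by a chain of enzymes of the same kind as those for ubiquitin. An activating enzyme (E1), Uba7, loads it, a conjugating enzyme (E2), Ube2l6, carries it, and a ligase (E3), which in the mouse is chiefly Herc6, passes it to the target. Usp18 is the protease that takes it off again, and Usp18 also binds the interferon receptor and dampens its signal. In microglia, as in macrophages, these genes belong to the interferon-stimulated genes, which LPS can reach through secreted interferon-β. The paper also describes Isg15 as a gene that depends on the transcription factor IRF3.

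The promoters of Isg15 and Uba7 are shown because they hold matches to the motifs of interferon regulatory factors and stand at opposite ends of the response described below. Each is the window of 250 bases before and 50 bases from the RefSeq transcription start on GRCm38.p6 (mm10), written 5′ to 3′ on the strand of the gene, and capitals mark the matches.
Isg15, chr4:156200769-156201068, minus strand: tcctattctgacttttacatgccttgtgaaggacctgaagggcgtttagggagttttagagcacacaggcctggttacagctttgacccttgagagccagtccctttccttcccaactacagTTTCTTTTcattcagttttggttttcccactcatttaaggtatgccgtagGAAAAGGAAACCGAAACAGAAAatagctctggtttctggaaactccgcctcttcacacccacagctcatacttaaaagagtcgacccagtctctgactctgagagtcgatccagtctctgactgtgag
Uba7, chr9:107975317-107975616, plus strand: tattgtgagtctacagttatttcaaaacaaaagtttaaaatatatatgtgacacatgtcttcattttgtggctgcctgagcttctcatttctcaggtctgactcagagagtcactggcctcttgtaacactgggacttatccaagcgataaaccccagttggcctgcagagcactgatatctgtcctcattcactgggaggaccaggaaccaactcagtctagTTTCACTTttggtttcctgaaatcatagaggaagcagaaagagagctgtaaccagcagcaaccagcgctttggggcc
The core of the interferon-stimulated response element (ISRE) was searched as GAAANNGAAA on both strands. The Isg15 window held 3 matches, GAAAAGGAAA, GAAACCGAAA and GAAACAGAAA, which overlapped each other and began 78, 72 and 66 bases before the start. The windows of Uba7, Ube2l6 and Herc6 held none, and no window was available for Usp18. Of all 32851 RefSeq windows of this length, 3.44% held at least 1. The shorter motif AANNGAAA, which lies inside every ISRE core, was found in 23.9% of all windows. It had 1 further match in the Isg15 window, on the opposite strand, and 1 match in the Uba7 window, TTTCACTT as read on the strand of the gene, 27 bases before the start. The windows of Ube2l6 and Herc6 held no match to this shorter motif. A consensus for NF-κB was in 8.46% of all windows and in 0 of the 4 member windows. Over the 10053 windows of tested genes the shares were 3.05% for the ISRE core, 17.9% for the shorter motif and 10.7% for the NF-κB consensus. These matches are letters in a window and were not tested for binding.

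Libraries held between 2597505 and 3472716 fragments counted on genes. The ribosomal RNA precursor Rn45s took 22.2 to 32.4% of these under GSK-J4 alone and 45.8 to 48.1% once LPS was added, so raw counts of other genes are not comparable between the groups. Levels are therefore given as CPM, counts scaled to library size and TMM factor, on which 3 counts in a library stand for 0.673 to 1.24 CPM. Replicate 3 of each group stood apart from the other two. A chi-square comparison of counts within a group gave, per degree of freedom, 2.21 and 2.48 for replicates 1 and 2, and 6.44 to 13.9 for pairs with replicate 3. Calls of up- or down-regulation needed an adjusted p no higher than 0.01 and a log2 fold change no smaller than 1.5 in size.

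Of the 5 genes, 3 were up-regulated in LPS + GSK-J4, Isg15, Herc6 and Usp18, and 0 were down-regulated. Ube2l6 and Uba7 were not called. The log2 fold change was 5.90 for the modifier Isg15 and at most 1.99 for the enzymes, and Uba7 was the only one of the 5 with a lower mean. Over all tested genes 2.95% were called up and 0.809% were called down. The median log2 fold change was 1.54 over the 5 genes and -0.00 over all tested genes. In 4 of the 5 the lowest LPS + GSK-J4 library exceeded the highest GSK-J4 library, which held for 19.8% of all tested genes.

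**Figure D1:**
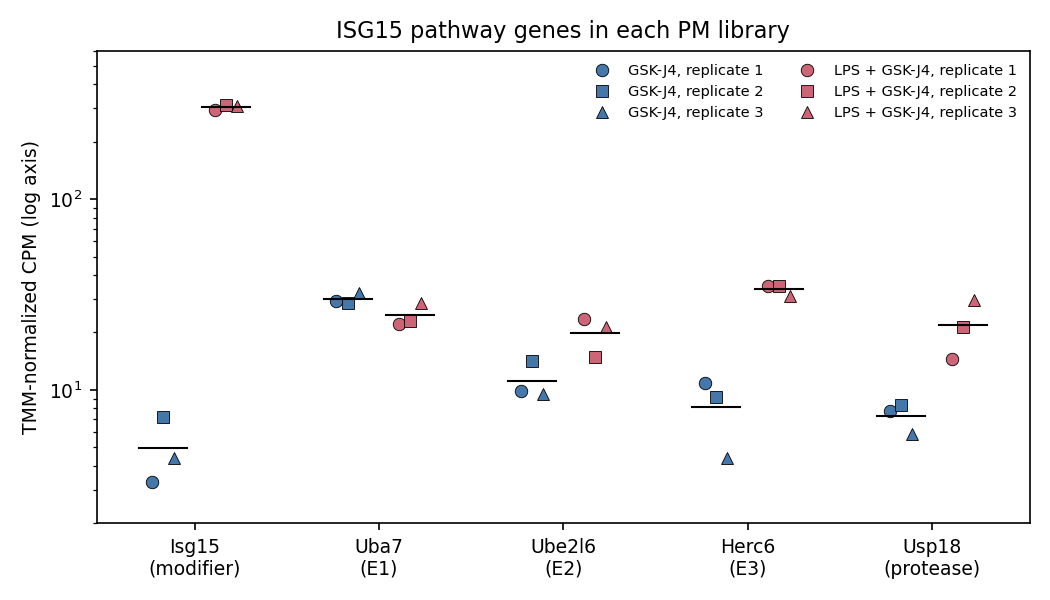
TMM-normalized CPM of the 5 genes (log axis) in each of the 3 GSK-J4 libraries (blue) and 3 LPS + GSK-J4 libraries (red), with marker shapes for replicates and a black line at each mean. Isg15 moves from 4.96 to 304.5 CPM, the LPS + GSK-J4 points of Herc6, Usp18 and Ube2l6 lie above their GSK-J4 points by less, and the Uba7 groups nearly touch.

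Isg15, the modifier itself (ENSMUSG00000035692.6, chromosome 4, 156199424 to 156200818, minus strand, 2 exons), had 14, 32 and 12 counts under GSK-J4 alone (replicates 1, 2 and 3) and 753, 813 and 749 once LPS was added. These were 3.30, 7.18 and 4.40 CPM without LPS against 293.9, 310.2 and 309.3 CPM with it. The LPS + GSK-J4 libraries were close to one another, with a coefficient of variation of 3.02% against 40.3% in GSK-J4, and no library of one group came near the other. The mean went from 4.96 ± 2.00 to 304.5 ± 9.18 CPM (SD, n = 3). The log2 fold change was 5.90 (SE 0.20, 95% interval 5.48 to 6.32, edgeR adjusted p = 3.98e-12), the 11th largest of 10133.

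Uba7, the E1 that starts the chain (ENSMUSG00000032596.14, chromosome 9, 107975505 to 107984060, plus strand, 24 exons), had 124, 127 and 88 counts under GSK-J4 alone and 57, 60 and 69 with LPS. After scaling these were 29.26, 28.51 and 32.27 CPM without LPS against 22.25, 22.90 and 28.49 CPM with it. The groups met at 28.51 and 28.49 CPM, and the gap was narrower than in raw counts. The means were 30.0 ± 1.99 and 24.5 ± 3.44 CPM (SD, n = 3). The log2 fold change was -0.29 (SE 0.18, 95% interval -0.66 to 0.09, edgeR adjusted p = 0.274), an interval that holds no rise of the size seen for Herc6 or Usp18 but leaves room for a modest fall.

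Ube2l6, the E2 of the chain (ENSMUSG00000027078.14, chromosome 2, 84798828 to 84810335, plus strand, 4 exons), had 42, 63 and 26 counts under GSK-J4 alone and 60, 39 and 52 with LPS. In CPM it was at 9.91, 14.14 and 9.53 without LPS against 23.42, 14.88 and 21.47 with it. GSK-J4 replicate 2 and LPS + GSK-J4 replicate 2 were nearly level. The mean was 11.2 ± 2.56 and 19.9 ± 4.47 CPM (SD, n = 3). The log2 fold change of 0.81 (SE 0.24, 95% interval 0.30 to 1.32, edgeR adjusted p = 0.0223) met neither part of the threshold, while 13.7% of all tested genes were higher at an adjusted p of at most 0.05.

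Herc6, the E3 (ENSMUSG00000029798.11, chromosome 6, 57581000 to 57664632, plus strand, 23 exons), had 46, 41 and 12 counts under GSK-J4 alone and 90, 92 and 75 with LPS. Its levels were 10.85, 9.20 and 4.40 CPM without LPS against 35.13, 35.11 and 30.97 CPM with it. The lowest GSK-J4 value was that of replicate 3, and the LPS + GSK-J4 values were well clear of all 3 GSK-J4 values. The mean went from 8.15 ± 3.35 to 33.7 ± 2.39 CPM (SD, n = 3), and its log2 fold change was 1.99 (SE 0.24, 95% interval 1.47 to 2.501, edgeR adjusted p = 1.73e-05). With replicate 3 of both groups left out it was 1.815, beside 5.835 for Isg15, 0.67 for Ube2l6 and -0.35 for Uba7.

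Usp18, the protease (ENSMUSG00000030107.10, chromosome 6, 121245906 to 121270917, plus strand, 11 exons), had 33, 37 and 16 counts under GSK-J4 alone and 37, 56 and 72 with LPS. Its levels were 7.79, 8.31 and 5.87 CPM without LPS against 14.44, 21.37 and 29.73 CPM with it. The groups did not overlap, but the LPS + GSK-J4 libraries were spread widely, with a coefficient of variation of 35.1%. The mean went from 7.32 ± 1.29 to 21.9 ± 7.66 CPM (SD, n = 3), and its log2 fold change was 1.54 (SE 0.27, 95% interval 0.96 to 2.12, edgeR adjusted p = 0.000585). This value sat close to the threshold and rested in part on replicate 3. It was 1.26 without LPS + GSK-J4 replicate 3, 1.43 without GSK-J4 replicate 3 and 1.16 without both, and in each case the call was lost on size.

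**Figure D2:**
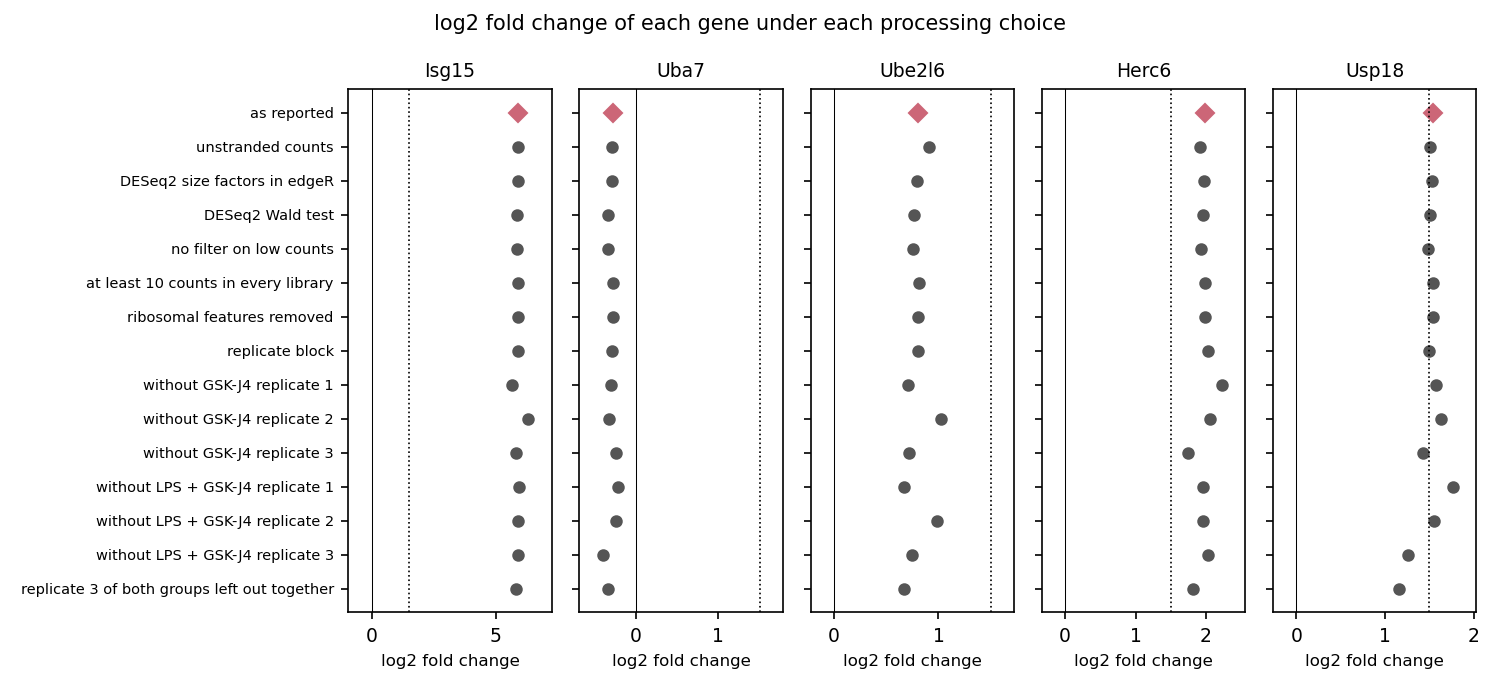
Log2 fold change (LPS + GSK-J4 over GSK-J4, x axis) of each gene as reported (red diamond) and under each alternative processing choice (grey points, y axis), with a dotted line at 1.5. Isg15 and Herc6 stay right of the line throughout, Uba7 and Ube2l6 stay left of it, and Usp18 falls on either side.

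Because scaling between libraries cancels in a ratio of a pair of genes within a library, all 10 pairs were compared as log2 ratios of counts with 0.5 added. A 2-sided exact permutation test of 3 libraries against 3 cannot go below p = 0.1, so no pair could pass 0.05. The groups did not overlap in 8 pairs, 4 of them with Isg15 (exact permutation p = 0.1, adjusted p = 0.125). The same held for 40.1% of all pairs of tested genes. Over pairs with any other tested gene it held for 99.9% with Isg15, 92.7% with Herc6 and 84.4% with Usp18. It held for 53.4% with Ube2l6 and 40.8% with Uba7. Isg15 went from 0.161 to 12.4 counts per count of Uba7, a change of 6.26 in the log2 ratio. Against the protease Usp18 it went from 0.658 to 14.4 counts per count, a change of 4.45, and against the E3 Herc6 from 0.625 to 8.99, a change of 3.85. Uba7 went from 4.08 to 1.16 counts per count of Usp18 and from 3.88 to 0.726 per count of Herc6. The groups overlapped for Ube2l6 to Usp18, with a change of -0.69 in the log2 ratio, and for Herc6 to Usp18, with a change of 0.61 (exact permutation p = 0.3 for both, adjusted p = 0.3).

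The order of levels between genes also changed, as CPM per kilobase of the principal transcript show. In GSK-J4 the order was Uba7 at 9.39 ± 0.62, Ube2l6 at 7.18 ± 1.64, Isg15 at 6.56 ± 2.65, Usp18 at 4.13 ± 0.73 and Herc6 at 1.71 ± 0.70 (SD, n = 3). Neighbours in this order overlapped in range except Usp18 and Herc6. In LPS + GSK-J4 Isg15 led at 402.7 ± 12.1 CPM per kilobase, 31.5 times Ube2l6 at 12.8 ± 2.87. Usp18 at 12.3 ± 4.32, Uba7 at 7.68 ± 1.08 and Herc6 at 7.08 ± 0.50 followed, and each of these overlapped its neighbours. Of the fragments per kilobase summed over the 5 genes, the modifier held 22.2% ± 5.70 without LPS and 91.0% ± 1.02 with it, and Uba7 held 33.0% ± 6.27 and 1.73% ± 0.20.

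**Figure D3:**
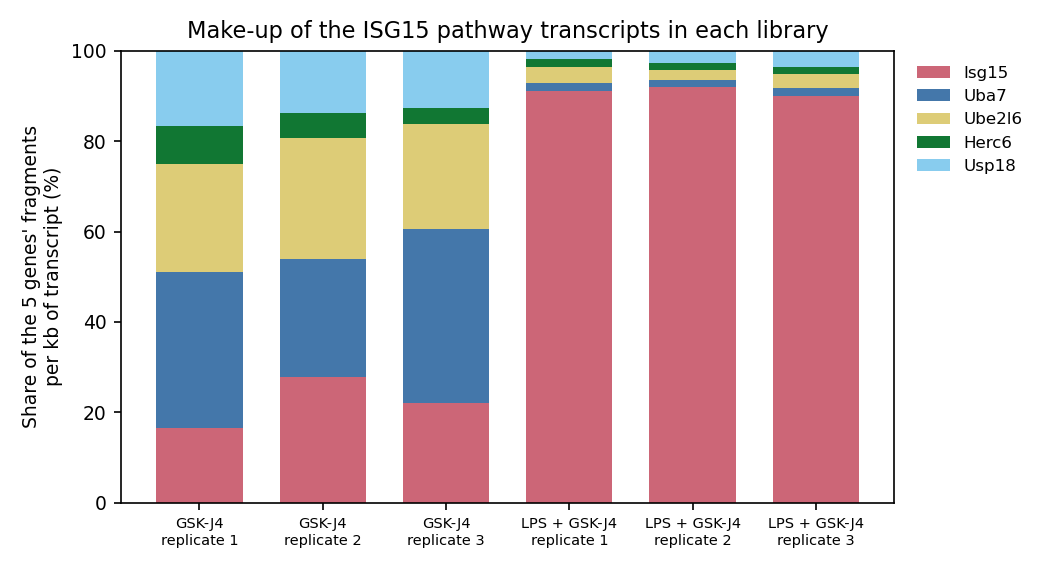
Share of each gene (%) in the fragments per kilobase of transcript summed over the 5 genes, in each of the 6 libraries (bars add up to 100). In GSK-J4 the genes share the total, and in every LPS + GSK-J4 library Isg15 takes between 89.9 and 91.9%.

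The relatives of these genes were read class by class, beside the background of 2.95% called up and 0.809% called down over all tested genes. At this background few calls would be found in classes of this size. Of the other ubiquitin-like modifiers 12 of 14 were tested and 0 were called, with a median log2 fold change of 0.15. Rps27a, which encodes ubiquitin fused to a ribosomal protein, was at 0.15 and Nedd8 at 0.14. Of the other E1 enzymes 8 were tested and 0 were called, with Uba1, the main E1 of ubiquitin, at 0.37 (edgeR adjusted p = 0.0282) and Uba6 at 0.19. Of the other E2 enzymes 28 of 30 were tested and 0 were called, with a median of 0.08. Ube2l3, the paralog of Ube2l6 that serves ubiquitin, was at 100.3 ± 4.97 CPM without LPS against 103.9 ± 8.82 CPM with it (SD, n = 3). Of the other HERC genes 4 were tested and 0 were called, with Herc4 at -0.43 and Herc3 at -0.09. The adjusted p alone was met by 4 of these genes, which are named here after their values were seen. The log2 fold change was 1.40 for Ube2f, an E2 of Nedd8 (edgeR adjusted p = 6.3e-05), which was called without GSK-J4 replicate 1, and -0.71 for Ube2q1 (edgeR adjusted p = 0.000694). It was -1.22 for Atg12, an autophagy modifier (edgeR adjusted p = 7.65e-06), and -0.88 for Sumo3 (edgeR adjusted p = 0.00162).

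**Figure D4:**
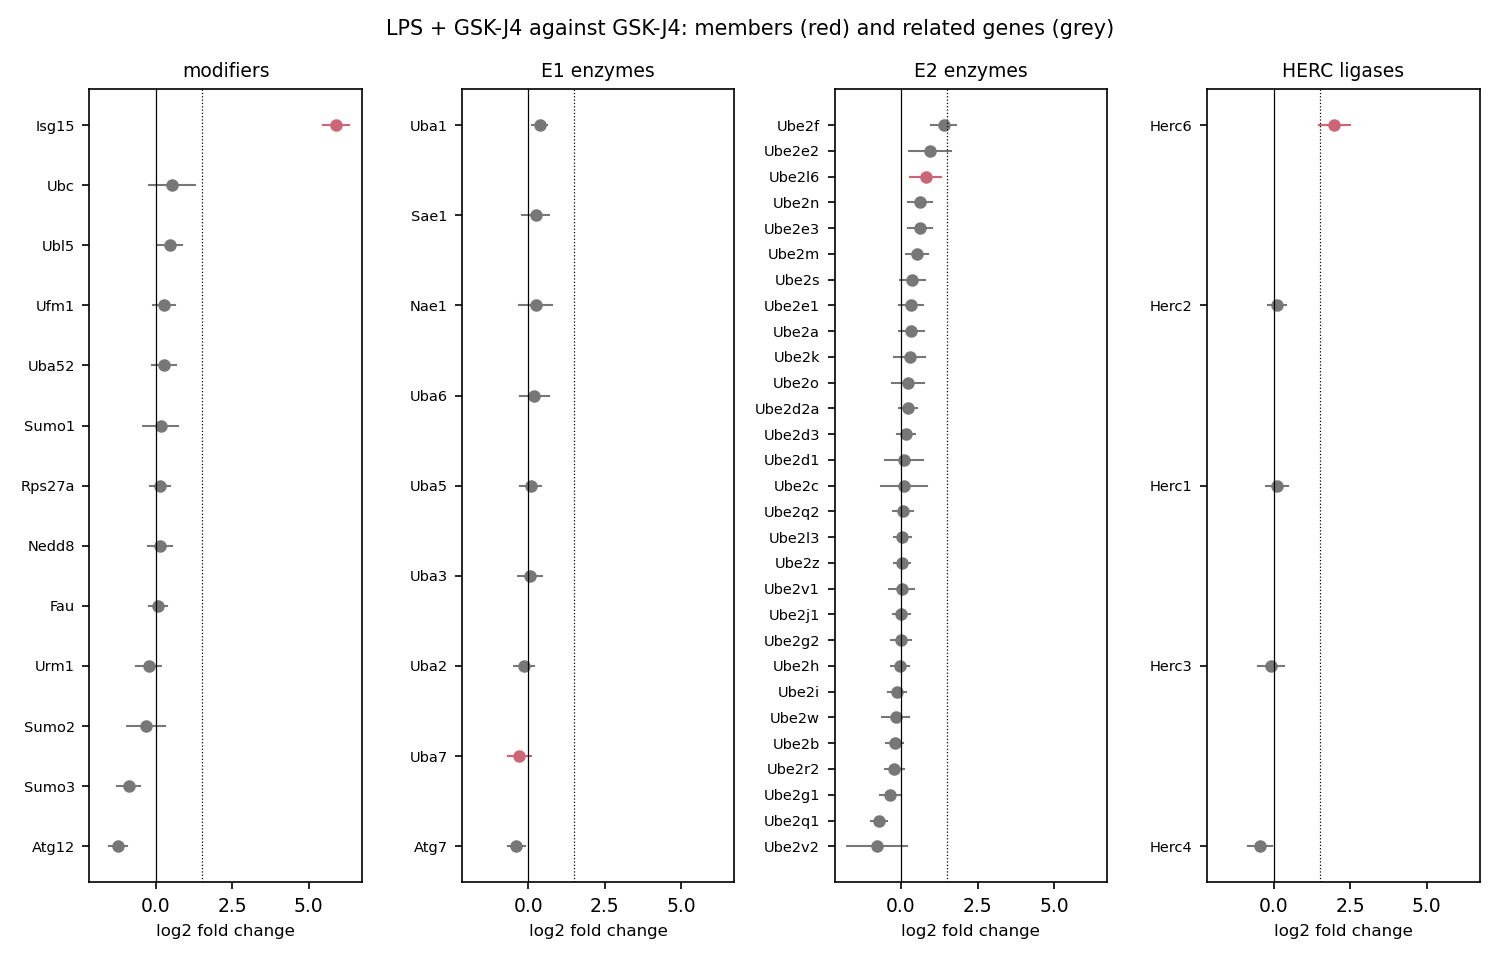
Log2 fold change of LPS + GSK-J4 over GSK-J4 (x axis, point) with its 95% interval (line) for the tested modifiers, E1 enzymes, E2 enzymes and HERC ligases, with the 4 members of these classes in red and a dotted line at 1.5. Isg15 at 5.90 and Herc6 at 1.99 lie right of the dotted line, and Ube2l6 and Uba7 lie among their relatives.

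Of the other enzymes reported to act on ISG15, 9 of 10 were tested and 1 was called. Trim25, a ligase of the RNA sensor RIG-I that is also reported to ligate ISG15, rose from 19.3 ± 1.25 to 66.1 ± 11.4 CPM (SD, n = 3), and its log2 fold change was 1.76 (SE 0.17, edgeR adjusted p = 1.36e-06). The ligase Arih1 was at -0.05 and the E2 Ube2e1 at 0.33. Among proteases that can cut ISG15, Usp16 was at 0.94 (edgeR adjusted p = 0.00119) and Usp2 at -1.26 (edgeR adjusted p = 0.00107), past the adjusted p but not the fold change.

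Of 14 genes of proteins reported to be modified by ISG15, 2 were up-regulated, both antiviral. Ifih1, the sensor MDA5, rose from 11.9 ± 1.42 to 362.8 ± 6.82 CPM (SD, n = 3), and its log2 fold change was 4.91 (edgeR adjusted p = 7.38e-13). Ifit1 rose from 1.61 ± 1.89 to 169.9 ± 28.1 CPM (SD, n = 3). Its log2 fold change was 6.58 and became 8.15 without GSK-J4 replicate 1, the only GSK-J4 library above the lower limit of 3 counts. Mx1 at 1.30 passed the adjusted p alone, the sensor Ddx58 was at 0.95 (edgeR adjusted p = 0.0361), and the kinase Eif2ak2 was at 0.21 (edgeR adjusted p = 0.67). The median over this list was 0.29. Itgal and Itgb2, the chains of the integrin reported as a receptor of secreted ISG15, were at -0.17 and 0.06 and were not called.

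Of 10 genes of interferon signalling 2 were up-regulated. Ifnb1, which encodes interferon-β, had 1 fragment over the 3 GSK-J4 libraries, under the lower limit of 3 counts, and stood at 88.3 ± 9.80 CPM in LPS + GSK-J4 (SD, n = 3). Irf1 rose from 46.2 ± 8.37 to 450.7 ± 21.2 CPM, and its log2 fold change was 3.27 (edgeR adjusted p = 7.11e-11). Irf7 at 1.37 (edgeR adjusted p = 0.000225) was below the fold threshold but was called without LPS + GSK-J4 replicate 1 (1.51), and Irf9 was at 0.62 (edgeR adjusted p = 0.0112). The receptor chain Ifnar2, to which Usp18 binds, was at -0.03, and Stat2 was at 0.45.

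Of 12 other interferon-stimulated genes 8 were up-regulated, all 12 had a positive log2 fold change, and the median was 3.48. Rsad2 (6.59), Oasl1 (5.98), Cmpk2 (5.48) and Ifit2 (4.41) were closer to Isg15 than to Herc6 or Usp18 on the log2 scale. Mx2 (3.88, or 4.58 without GSK-J4 replicate 1), Ifit3 (3.49), Rtp4 (3.48) and Xaf1 (1.60) followed. Oasl2 (1.41), Ifi44 (1.27), Oas1a (0.40) and Oas2 (0.32) were not called. These genes, and Xaf1 which was called, lay within the wide range between Uba7 (-0.29) and Herc6 (1.99). Without LPS + GSK-J4 replicate 1 Oasl2 (1.52) and Ifi44 (1.54) were called. The 6 LPS response genes Tnf, Nfkbia, Tnfaip3, Cxcl2, Il1b and Il6 were all up-regulated, with log2 fold changes of 3.13 to 6.95.

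The genes whose log2 CPM followed each member most closely over the 6 libraries are given as a description. The libraries fall into 2 groups, so these correlations include the difference between the groups. For Isg15 they were Ptx3 (Pearson r = 0.999), Kctd12 (0.998) and Tnfsf15 (0.998), and for Uba7 they were Pld3, Exoc8 and Pmf1 (0.995, 0.994 and 0.993). For Ube2l6 they were Epha4, Prepl and Ccl6 (0.999, 0.988 and 0.980), for Herc6 Polr2g, Ciapin1 and Sema3c (each 0.998), and for Usp18 Hmga2, Ppap2a and Efnb2 (0.998, 0.997 and 0.995).

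Summed levels of the markers of astrocytes, the oligodendrocyte lineage and neurons were higher in every LPS + GSK-J4 library, and those of fibroblasts and endothelium overlapped between the groups. The 8 microglia markers were all detected, with a summed level of 2441 to 2521 CPM without LPS against 1880 to 1928 CPM with it, 8 of 8 lower and 0 called. The sum over astrocyte markers was 53.9 to 59.4 CPM without LPS and 130.7 to 158.6 CPM with it. Of 7 tested, 1 was called up, Gfap at 1.70, and 1 was lower, Aldh1l1 at -0.16. Oligodendrocyte lineage markers summed to 189.9 to 221.5 CPM and to 365.9 to 422.9 CPM, with 0 of 7 called. Neuron markers summed to 19.6 to 23.8 CPM and to 46.7 to 52.7 CPM, with 1 of 3 called, Stmn2 at 1.52, a call lost under 4 of 14 alternatives. Rbfox3, Syt1 and Snap25 had too few counts to be tested. Mean CPM without and with LPS was 0.52 and 0.26 for Rbfox3, 0.59 and 0.14 for Syt1, and 0.08 and 1.07 for Snap25. Fibroblast and endothelial markers summed to 80.6 to 269.9 CPM and to 143.6 to 437.3 CPM, with 1 of 5 called, Cdh5 at 1.504, a call lost under 10 of 14 alternatives, and the endothelial marker Cldn5 was at 0 in all libraries. Their part in the values of the ISG15 genes was not tested, and in these bulk samples fewer cells of a type and less RNA per cell cannot be told apart.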

How the data were processed

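RNA-seq was analysed in 3 libraries of PM with GSK-J4 and 3 with LPS + GSK-J4. Libraries were rRNA-depleted and directional. The authors trimmed the reads with Trimmomatic 0.33, aligned them with STAR 2.5.1 to mm10 and deposited raw counts of fragments per gene for unstranded, same-strand and reverse-strand reads, per the labels and the paper's methods. The annotation used for counting is not given in the sources used here. STAR counts a fragment only where it maps once and overlaps 1 gene. Uba7, Herc6 and Usp18 overlap other GENCODE genes that are not features of these tables.

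Reverse-strand counts were used, and the 4 tally lines of each table were left out of all totals. Between 59.5 and 62.8% of uniquely mapped fragments were assigned to no gene on that strand. The test was the robust quasi-likelihood test of edgeR 4.0.16 in R 4.3.3, with TMM factors, filterByExpr (minimum count 10, minimum total 15), no covariates and Benjamini-Hochberg adjustment over all 10133 genes tested. Intervals of fold changes are at 95%, from the fit, and counting limits cover counting error only. Replicates are separate RNA samples of pooled cells, and the paper does not say whether each came from its own pool of mice. The edgeR p-values rest on the spread between these samples, estimated in part across all genes. No libraries were identical. Figures were made in Python 3.11.15 with matplotlib 3.10.9.

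Members and gene lists were chosen with earlier results of these data known. Genes named were the 5 members, each list gene that was called, up to 4 others per list by role and the 3 genes most correlated with each member. Promoter windows of 4 of the 5 members and of the other genes are from RefSeq. The alternatives were unstranded counts, DESeq2 1.42.0 (its size factors, and its Wald test, the paper's tool), no filter, at least 10 counts in every library, ribosomal features removed, a looser threshold, the replicate number as a block, and each library left out. Leaving out replicate 3 of both groups was added after seeing the data.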

Additional observations from a re-analysis of the deposited data

Results flagged for a closer look

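Over the 3 LPS + GSK-J4 libraries 14 fragments lay on the strand opposite to Ube2l6 (exact Poisson 95% interval 7.65 to 23.5), against 1 over the 3 GSK-J4 libraries (0.0253 to 5.57). This was seen in the count column that no comparison used by itself, where the signal was above the level in GSK-J4. It was 8.49% of the fragments on either strand of Ube2l6 in LPS + GSK-J4 and 0.758% in GSK-J4. The alternative with unstranded counts includes these fragments. There the log2 fold change of Ube2l6 was 0.91 (edgeR adjusted p = 0.00757), past the adjusted p but not the fold change. The GENCODE annotation lists no gene on the opposite strand there. The other members had between 0 and 8 such fragments per group. Their highest share was 4.81%, for Herc6 in GSK-J4, from 5 fragments (1.62 to 11.7), and Herc6 was at 1.15% in LPS + GSK-J4. The intervals cover counting error only.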

How the results depend on the processing

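Isg15 (log2 fold change 5.64 to 6.32) and Herc6 (1.75 to 2.22) were called, and Uba7 (-0.40 to -0.22) and Ube2l6 (0.67 to 1.02) were not, under every alternative run. For Usp18 the fold change fell below 1.5 with no filter (1.49), with replicate 3 of both groups left out (1.16) and in some fits without 1 library (1.26 to 1.76), while its adjusted p over all alternatives was between 1.39e-07 and 0.00461. Genes called up numbered 176 with at least 10 counts in every library, for which fewer genes were tested, and 844 at the looser threshold, where 285 were called down. Without 1 library 271 to 374 were called up and 79 to 100 down. Directions near 0 turned for Ube2l3 (-0.0034 with no filter), Herc3 (-0.247 to 0.0838 without 1 library) and Ifnar2 (-0.0698 to 0.0259 without 1 library, 0.0280 with replicate 3 of both groups left out). Calls were lost for Cdh5 under 10 alternatives, Stmn2 under 4 and Xaf1 under 2, and were gained for Ube2f without GSK-J4 replicate 1 (1.53) and for Irf7, Oasl2 and Ifi44 without LPS + GSK-J4 replicate 1 (1.51 to 1.54). The cause was not tested. Usp18, Herc6 and Ube2l6 had under 100 counts in each library, which limits the precision of their values.

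The replicate numbers were shared between the groups, and whether they pair the samples is not settled by these values. Deviations of same-numbered libraries correlated at -0.01, 0.12 and 0.30. GSK-J4 replicates 1 and 2 each correlated best with the other number. GSK-J4 replicate 3 correlated best with its own number, at 0.30 against -0.197 and -0.177 for LPS + GSK-J4 replicates 1 and 2. A block for the replicate number gave 306 up-regulated and 90 down-regulated genes, against 299 and 82, and Usp18 went to 1.49 (adjusted p = 3.29e-06).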
